A study of Mus musculus with 6 samples.

Results

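The receptor-type protein tyrosine phosphatases are membrane proteins that join an extracellular adhesion or ligand-binding region to a cytoplasmic phosphatase domain. The 10 genes described here (Ptprq, Ptprz1, Ptprf, Ptprd, Ptprs, Ptprg, Ptprk, Ptprm, Ptpro and Ptprn) were chosen by gene symbol from the 52636 genes of the deposited table, and each symbol was found. They make up 10 of the 21 receptor-type phosphatase genes looked for, and the other 11 served for comparison. All 10 had enough counts to be tested. The study asked how gene expression in the vestibular sensory epithelium changes under chronic ototoxic exposure. The tissue came from male 129S1/SvImJ mice, 2 to 4 months old. The 3 IDPN animals received 30 mM IDPN (3,3'-iminodipropionitrile, an ototoxic nitrile that damages hair cells, HCs, the sensory cells of the inner ear) in their drinking water for 8 weeks, and the 3 Control animals drank plain water. Each library held the pooled RNA of 2 utricles and 6 cristae, the vestibular sensory organs, of 1 animal. The sample titles and library names of the 6 libraries name no batch. The codes in the sample titles share a stem in all Control libraries that no IDPN library has. IDPN 2 and IDPN 3 share another stem, and IDPN 1 has its own. Whatever these stems mark cannot be told apart from the treatment.

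Among these phosphatases PTPRQ is the one best known from the HC, and the study also counts Ptprz1 among genes of important HC proteins. It carries a long row of fibronectin repeats outside the cell, sits toward the base of the stereocilia where shaft connectors join neighbouring stereocilia, acts on phosphatidylinositol phosphates as well as on phosphotyrosine, and its loss causes deafness and vestibular dysfunction. The others are best known as adhesion receptors (PTPRM, PTPRK), as receptors for growth factors and contactins (PTPRZ1, PTPRG), as organizers of synapses and axons (the LAR family of PTPRF, PTPRD and PTPRS), or from other tissues and organelles (PTPRO of the podocyte, PTPRN of the dense-core granule). What unites them is the active site of the phosphatase domain, in which a cysteine attacks the phosphate and an arginine holds it.

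The coding bases of that site are shown for 9 of the genes, to let them be compared where they are most alike. Each stretch holds 10 codons of the first active-site signature found in the longest coding transcript (GENCODE M21, GRCm38), read 5′ to 3′ on the coding strand. The capitals mark the codons of the catalytic cysteine and of the phosphate-binding arginine.
Ptprq: catTGCagcgctggggttggaAGGacggga
Ptprz1: cacTGCagtgctggcgtggggAGAacgggg
Ptprg: cacTGCagcgctggtgtgggcAGGacaggc
Ptprf: catTGCagtgcgggtgtggggCGCacaggc
Ptprd: cacTGCagtgctggtgttggcAGAactggc
Ptprs: cacTGCagcgcgggtgtggggCGCactggc
Ptprk: cacTGCagtgctggtgctgggCGCacaggc
Ptpro: cacTGCagtgcgggtgtgggaCGGacagga
Ptprn: cacTGCagtgacggtgcagggAGGacaggc

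Between 6 bases (Ptprg) and 10 bases (Ptprn) of each stretch differ from Ptprq. The encoded residues differ far less. In Ptprz1, Ptprg, Ptprf, Ptprd, Ptprs and Ptpro all 10 codons encode the same residues as in Ptprq, in Ptprk 9 do, and in Ptprn, whose product is known to lack activity on phosphotyrosine, 8 do. In each of these genes an intron interrupts the stretch after base 8. The stretch of Ptprq spans chr10:107523614-107524215 with its intron (minus strand). A second signature was found in Ptprf, Ptprd, Ptprs and Ptprk, and Ptprq had 1.

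This likeness did not extend over the length of a read. Of the 76-base words in the exons of Ptprq, Ptprz1, Ptprf, Ptprd, Ptprs, Ptprk and Ptpro, 0 occur in another gene, and no member shares such a word with another member. In Ptprm 382 of 9067 words (4.21%) are shared with AC139750.1, a gene model that overlaps 457 of its exon bases on the same strand and held 10, 4 and 0 counts in Control and 1, 0 and 0 in IDPN. Ptprg shared 0.154% and Ptprn 1.39% of its words, the latter with the antisense model Gm28294, which had 0 counts in every library.

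Libraries held 40474847 to 43566332 estimated counts, with 15701 to 16812 genes at 10 counts or more. Genes were tested with the DESeq2 Wald test on counts normalized by median-of-ratios size factors, and a gene was called down- or upregulated when its adjusted p (Padj, Benjamini-Hochberg over all genes tested) was under 0.05 and its fold change exceeded 1.5. Of 17650 genes tested, 604 (3.42%) were called lower and 410 (2.32%) higher in IDPN. Size factors proportional to total counts moved the median gene up by 0.251 on the log2 scale and gave 214 lower (1.28%) and 609 higher (3.64%) genes. The edgeR quasi-likelihood test called 357 genes lower (2.19%). In the marker lists of cell types, 7 of 13 HC genes were downregulated (median log2-Fold_Change −0.70), and their summed normalized counts were 41209 to 44500 in Control and 26275 to 28289 in IDPN. Supporting cell markers had 1 of 8 downregulated (sums of 310706 to 441929 against 219857 to 262513), neuron markers 3 of 9 (5128 to 5362 against 3287 to 3552) and endothelial markers 1 of 5 (5277 to 9325 against 4611 to 7492). None was called among Schwann cell (112942 to 246652 against 101046 to 122655, the highest being Control 1), macrophage (2031 to 2704 against 2240 to 3314), stroma (20441 to 39051 against 35993 to 38675) or melanocyte markers (6056 to 14055 against 14340 to 21804). The marker counts depend on the scaling. With total-count size factors, 2 of 13 HC markers (Pou4f3 and Gfi1) were called lower, and the median log2-Fold_Change of that list was −0.46. The counts called lower were 1 of 8 supporting cell, 0 of 9 neuron and 0 of 5 endothelial markers. Called higher were 4 of 5 melanocyte markers, 1 of 6 stroma markers (Col1a2) and 1 of 5 endothelial markers (Tie1). No marker was at 0 in all libraries. In such whole-tissue RNA, fewer cells of a type and less RNA per cell cannot be told apart.

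Ptprq and Ptprm were downregulated in IDPN, 2 of the 10 members, and 0 were upregulated. Across all genes 3.42% were called lower. The edgeR test and the total-count scaling called the same 2 members, against 2.19% and 1.28% of all genes. The other 8 had Padj values between 0.0567 and 0.986. The median log2-Fold_Change of the 10 was −0.39, beside 0.02 for all genes tested (−0.15 and 0.27 with total-count scaling). In 5 of the 10 (50%) every IDPN library lay below every Control library, which was so for 11.4% of all genes tested. In 2 of the 10 (20%) every IDPN library lay above, against 11.1% of all genes. These positions are those of normalized counts and depend on the size factors. In raw counts the groups overlapped in Ptprz1, Ptprd, Ptprk and Ptprf. Ptprq and Ptprm were still lower, and Ptprs still higher, in every IDPN library. The share over all genes was not counted for raw counts. The plot of counts by library shows all 10.

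**Figure D1:**
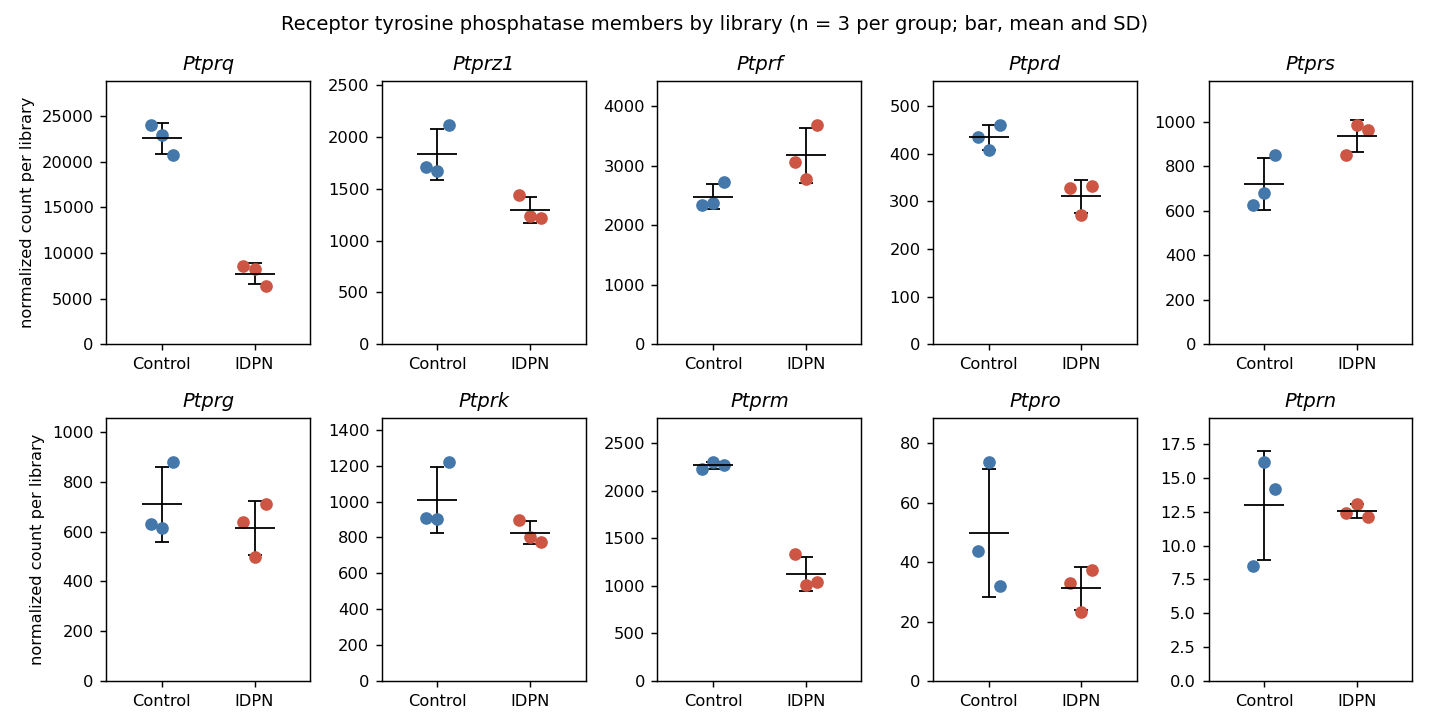
Normalized counts per library (vertical axes, each starting at 0) of the 10 members in Control (blue) and IDPN (red), with the mean and SD of n = 3 libraries in black. Ptprq, Ptprm, Ptprz1, Ptprd and Ptprk lie lower in all IDPN libraries, Ptprf and Ptprs lie higher, and Ptprg, Ptpro and Ptprn overlap between the groups.

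Ptprq (ENSMUSG00000035916.8, chr10:107517049-107720051, minus strand) was the most abundant member and the one with the largest drop. It had 24047, 22930 and 20697 normalized counts in the Control libraries and 8588, 8218 and 6384 in the IDPN libraries. The groups lay far apart, and the lowest Control library held more than any IDPN library by a wide margin. The mean fell from 22558 ± 1706 to 7730 ± 1180 (SD, n = 3), a log2-Fold_Change of −1.55 (SE 0.17, 95% interval −1.87 to −1.22) with a DESeq2 Padj of 5.09e-18, that is 2.92-fold lower. With edgeR the Padj was 0.00231, and with total-count scaling the log2-Fold_Change was −1.28 with a Padj of 4.57e-07. Leaving out each library in turn gave values between −1.62 and −1.43. Ptprq was tested against a fold change of 1.5 as well, and passed with a Padj of 2.63e-06. It is 1 of the 34 genes that the study lists as reduced in all its comparisons, these libraries included, so the drop here is not independent of that list.

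Relative to the HC markers as a group, Ptprq was lower in every IDPN library. Its counts came to 58.4%, 51.5% and 49.5% of the summed counts of the 13 HC markers in the Control libraries and to 32.7%, 29.1% and 23.4% in the IDPN libraries. All Control shares exceeded all IDPN shares. The mean share was 53.1% ± 4.65 in Control and 28.4% ± 4.66 in IDPN (SD, n = 3). On the log2 scale the ratio of Ptprq to the marker sum was −0.92 ± 0.12 in Control and −1.83 ± 0.24 in IDPN (SD, n = 3). The difference was −0.91. Its two-sided exact permutation p was 0.1, below which this design of 3 against 3 cannot go. It was −1.60 over Myo7a alone, the motor gene used to label HCs, and −0.87 with equal weight for each marker, each with an exact permutation p of 0.1. Myo7a itself hardly differed between the groups (log2-Fold_Change 0.01, SE 0.23). Of the 13 HC markers it was the only 1 with an estimate above 0, and 12 lay below 0. The lowest were Gfi1 at −1.21 and Pcdh15 at −1.12. The value over Myo7a therefore does not stand for the whole list, and ratios to other single markers were not computed. The ratio to the marker sum does not depend on the size factors.

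The share of Ptprq within its own family was lower in IDPN too. It supplied 65.1%, 63% and 57.5% of the counts of the 21 receptor-type phosphatase genes in Control and 39.1%, 39.9% and 32.5% in IDPN. The mean share went from 61.9% ± 3.91 to 37.2% ± 4.06 (SD, n = 3). In Control the gene thus outweighed the remaining 20 together, and in IDPN it did not. These are shares of counts, not corrected for gene length.

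**Figure D2:**
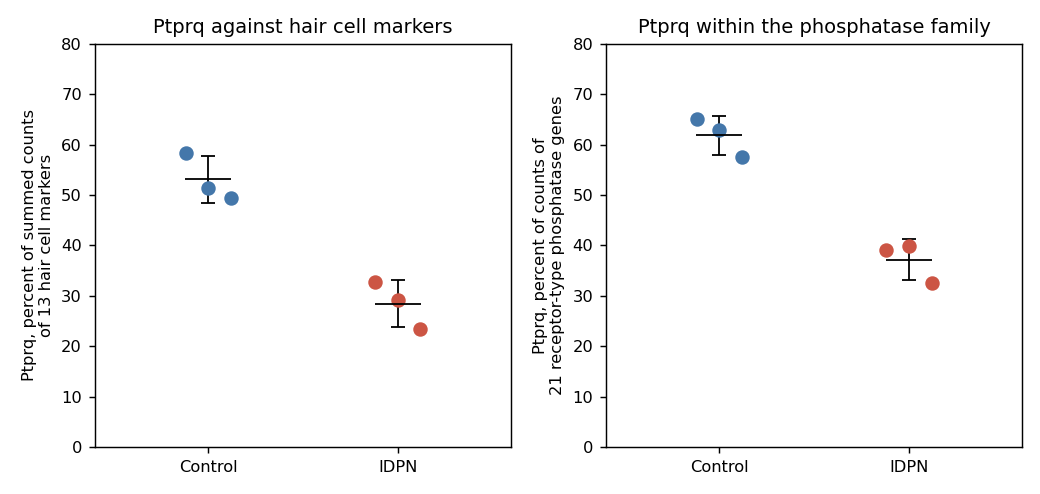
Left, counts of Ptprq as a percent of the summed normalized counts of 13 HC markers in each library, and right, as a percent of the counts of 21 receptor-type phosphatase genes, with the mean and SD of n = 3 libraries per group in black. In both panels the 3 Control libraries lie above the 3 IDPN libraries, with means of 53.1% and 28.4% on the left and 61.9% and 37.2% on the right.

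The genes of proteins that share the stereocilium base with PTPRQ were not called. CLIC5, radixin (Rdx) and taperin (Tprn) form a complex there that links the membrane to actin, RIPOR2 lies at the base, and myosin VI (Myo6) is the motor needed to place PTPRQ. Of these 5 genes 0 were called in either direction, and their median log2-Fold_Change was −0.21. Myo6 had 6444, 6861 and 6775 normalized counts in Control and 5905, 5629 and 5882 in IDPN, a log2-Fold_Change of −0.21 (SE 0.14, Padj 0.485) that became 0.05 with total-count scaling. Rdx had 4515, 4063 and 4321 against 4687, 4227 and 4599, with a log2-Fold_Change of 0.07 (SE 0.14, Padj 0.889). The groups of Rdx overlapped and those of Myo6 did not. Clic5 and Ripor2 were also lower in every IDPN library, so 3 of the 5 did not overlap, beside 11.4% of all genes. This depends on the size factors, since in raw counts the groups overlapped in Myo6, Clic5 and Ripor2. The log2-Fold_Change values of Clic5 and Ripor2 were −0.51 (SE 0.21, Padj 0.145) and −0.35 (SE 0.19, Padj 0.339). A difference between Ptprq and these genes was not tested.

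Ptprm (ENSMUSG00000033278.10, chr17:66666947-67354457, minus strand) encodes a phosphatase with a MAM domain that binds its own kind on neighbouring cells at adhesive contacts. Its normalized counts were 2226, 2304 and 2265 in Control and 1330, 1008 and 1034 in IDPN. The Control libraries were nearly equal, and every IDPN library lay well below them. The mean of 2265 ± 39.1 fell to 1124 ± 179 (SD, n = 3), a log2-Fold_Change of −1.01 (SE 0.17, 95% interval −1.34 to −0.68, DESeq2 Padj 3.3e-07), that is 2.01-fold lower. The edgeR Padj was 0.00531. Total-count scaling brought the log2-Fold_Change to −0.74 with a Padj of 0.0498, just under the threshold, and tested against a fold change of 1.5 Ptprm no longer passed (Padj 0.711). Relative to the summed HC markers, the log2 ratio of Ptprm was −4.23 ± 0.04 in Control and −4.61 ± 0.27 in IDPN (SD, n = 3, no test), with IDPN 1 at −4.30 close to Control 2 at −4.27.

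The 3 relatives of Ptprm with the same domain plan differed among themselves. Ptprk (chr10:28074820-28597397, plus strand), another homophilic adhesion receptor, had 906, 904 and 1223 normalized counts in Control and 898, 803 and 775 in IDPN. Its groups were apart by only a few counts between Control 2 and IDPN 1, and its log2-Fold_Change was −0.29 (SE 0.19, 95% interval −0.66 to 0.08, Padj 0.459). Ptpru had 1921, 1894 and 1891 against 1942, 1950 and 1927, a log2-Fold_Change of 0.03 (SE 0.14, 95% interval −0.25 to 0.31, Padj 0.959). All 6 libraries held nearly the same count. Ptprt, best known from neurons, had 82.5, 94.6 and 137 normalized counts in Control and 44.7, 21.1 and 13.1 in IDPN. It was downregulated by DESeq2 (log2-Fold_Change −1.99, SE 0.46, Padj 0.00088) but had a Padj of 0.0504 with edgeR. Of the 9 neuron markers, 3 were downregulated (0 with total-count scaling), beside 3.42% of all genes (1.28% with total-count scaling). In normalized counts 5 were lower and 1 (Prph) was higher in every IDPN library, beside 11.4% and 11.1% of all genes. The part of these markers in the Ptprt result was not tested.

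Ptprz1 (chr6:22875502-23052916, plus strand) encodes a chondroitin sulphate proteoglycan receptor best known from glia, whose phosphatase is inhibited when the growth factors pleiotrophin (Ptn) and midkine (Mdk) bind. It had 1711, 1671 and 2117 normalized counts in Control and 1442, 1233 and 1218 in IDPN. No IDPN library reached the lowest Control library, and Control 3 stood above the others. The log2-Fold_Change was −0.50 (SE 0.17, 95% interval −0.84 to −0.16) with a Padj of 0.0567, so it was not called, and edgeR gave a Padj of 0.105. With total-count scaling it was −0.26 (Padj 0.602). The study names Ptprz1 among HC genes downregulated both in rats given streptomycin and in rats given IDPN. The markers of supporting cells had a median log2-Fold_Change of −0.41 and those of HCs one of −0.70. The part of either in the Ptprz1 values was not tested.

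Its closest relative, Ptprg (chr14:11553532-12242041, plus strand), which carries a carbonic anhydrase-like domain that binds contactins, did not separate the groups. It had 632, 614 and 881 normalized counts in Control and 638, 497 and 709 in IDPN. The 2 ranges overlapped between 614 and 709. The log2-Fold_Change was −0.21 (SE 0.22, 95% interval −0.63 to 0.22, Padj 0.722), and it was 0.03 with total-count scaling.

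Several genes were downregulated in a list of PTPRZ1 and PTPRG ligands and partners that also holds matrix proteoglycan genes. Of the 13 genes listed 12 were tested, 4 were downregulated, 0 were upregulated, and the median log2-Fold_Change was −0.89. Across all genes 3.42% were called lower. With total-count scaling the same 4 were called lower, beside 1.28% of all genes, and the list median was −0.62. Vcan encodes the matrix proteoglycan versican, whose binding to PTPRZ1 or PTPRG was not examined. It had 600, 533 and 614 normalized counts in Control and 29.8, 6.02 and 24.3 in IDPN. It was 28.6-fold lower (log2-Fold_Change −4.84, SE 0.33, Padj 6.92e-45). The contactin genes Cntn6 (474, 324 and 516 against 156, 113 and 106) and Cntn4 (340, 382 and 361 against 156, 38.2 and 90.5) encode adhesion proteins that PTPRG binds. Both were downregulated, with log2-Fold_Change values of −1.81 (SE 0.26, Padj 9.8e-10) and −1.92 (SE 0.36, Padj 1.25e-05). The ligand gene Ptn had 65397, 52873 and 35400 normalized counts in Control and 22509, 26234 and 30867 in IDPN. Control 3 came near IDPN 3, and the call (log2-Fold_Change −0.95, SE 0.22, Padj 0.000616) was lost with edgeR (Padj 0.0795). Cntn1, the contactin that PTPRZ1 binds on axons, had a Padj of 0.00452 but a log2-Fold_Change of −0.51, short of the 1.5-fold threshold. Its edgeR Padj was 0.104, and with total-count scaling the log2-Fold_Change was −0.26 (Padj 0.492). Nrcam, a cell adhesion gene, was not called (−0.15, SE 0.19, Padj 0.784), nor was the other growth factor gene, Mdk.

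The 3 genes of the LAR family were not called, and their estimates lay on both sides of 0. These receptors are best known from axons and presynaptic terminals, where they bind adhesion proteins of the partner cell. Which cells of this tissue gave their RNA was not tested. Ptprd (chr4:75941238-78211961, minus strand) had 435, 407 and 460 normalized counts in Control and 328, 271 and 331 in IDPN, lower in every IDPN library. Its log2-Fold_Change was −0.49 (SE 0.20, 95% interval −0.88 to −0.10, Padj 0.142). Ptprf (chr4:118208213-118291405, minus strand), the gene of LAR itself, had 2347, 2372 and 2728 against 3054, 2781 and 3686. Ptprs (chr17:56412426-56476483, minus strand) had 626, 678 and 850 against 852, 985 and 964. Both were higher in every IDPN library, though Control 3 nearly reached the lowest IDPN library in each. Neither passed the test, with log2-Fold_Change values of 0.35 (SE 0.17, 95% interval 0.02 to 0.68, Padj 0.241) and 0.38 (SE 0.19, 95% interval 0.01 to 0.74, Padj 0.268). With total-count scaling they were 0.60 for Ptprf (Padj 0.146) and 0.60 for Ptprs (Padj 0.168), and −0.23 for Ptprd (Padj 0.666), so the direction of each was kept.

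Partners of the LAR family were mostly not called. Of 23 genes 22 were tested, 3 were downregulated, 0 were upregulated, and the median log2-Fold_Change was −0.06. Across all genes 3.42% were called lower and 2.32% higher. With total-count scaling 2 were called lower and 1 higher, beside 1.28% and 3.64% of all genes, and the list median was 0.17. The downregulated genes all encode postsynaptic-type adhesion ligands. Slitrk3 had 153, 95.8 and 91.6 normalized counts in Control and 3.31, 17.1 and 7.47 in IDPN. It was 12.4-fold lower (log2-Fold_Change −3.64, SE 0.52, Padj 4.43e-10). Ntrk3, the neurotrophin receptor gene whose product also binds PTPRS and which the study has among its 34 genes, had 298, 259 and 327 against 78.6, 35.1 and 82.1 (−2.17, SE 0.31, Padj 1.17e-09). Slitrk6, known for its role in the innervation of the inner ear, had 4348, 3712 and 3905 against 2692, 2278 and 2528 (−0.67, SE 0.15, Padj 0.000612). In normalized counts, no library of one group entered the range of the other in these 3 genes. Of the 23 genes, 5 were lower and 3 higher in every IDPN library, beside 11.4% and 11.1% of all genes. This depends on the size factors, since in raw counts the groups of Slitrk6 overlapped (3216 in Control 2, 3253 in IDPN 1). The Slitrk6 call was lost with total-count scaling (−0.41, Padj 0.309). In the other direction Lrfn5, a synaptic adhesion gene named here after its values were seen, had 150, 86.6 and 99.6 against 188, 176 and 211, and was not called (0.77, SE 0.29, Padj 0.0893) except with total-count scaling (1.05, Padj 0.0296). Ppfibp1 and Ppfibp2, which encode liprin-beta proteins of the liprin family that binds the cytoplasmic part of LAR receptors, were not called (−0.08, SE 0.16, Padj 0.882 and −0.25, SE 0.19, Padj 0.561).

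**Figure D3:**
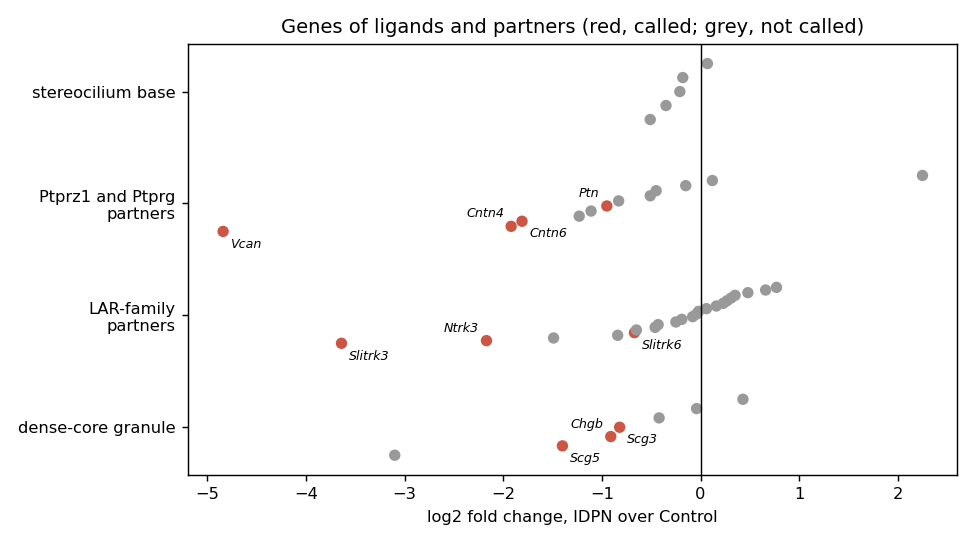
Log2 fold change (IDPN over Control, horizontal axis) of the tested genes in 4 lists of partners, 1 point per gene, red where called and grey where not, with vertical offsets only to separate points. The called genes all lie below 0, from Vcan at −4.84 to Slitrk6 at −0.67, and the 5 genes of the stereocilium base lie between −0.51 and 0.07.

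Ptpro and Ptprn were the scarcest members. Ptpro (chr6:137252319-137463233, plus strand), which encodes a phosphatase first known from kidney podocytes and later from axons, had 43.7, 73.9 and 32 normalized counts in Control and 33.1, 23.1 and 37.3 in IDPN. The groups overlapped, and the log2-Fold_Change of −0.67 had an SE of 0.49 (95% interval −1.63 to 0.29, Padj 0.538). Ptprn (chr1:75247027-75264502, minus strand) had 8.49, 16.2 and 14.2 against 12.4, 13.1 and 12.1. Its log2-Fold_Change of −0.05 (SE 0.74, Padj 0.986) had a 95% interval from −1.50 to 1.39. This interval holds the value found in Ptprm, so a change of that size was not excluded.

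PTPRN is a protein of dense-core granules, as is its paralog PTPRN2. In Control, Ptprn2 had 26, 12 and 13 raw counts. The IDPN libraries held 2, 3 and 0. All IDPN libraries were lower, and it was downregulated with a log2-Fold_Change of −3.62 (SE 1.09, Padj 0.0195). The call did not hold with edgeR (Padj 0.0614), with total-count scaling (Padj 0.0645), or without Control 1, Control 2, IDPN 1 or IDPN 3 (Padj up to 0.305). Without Control 3 DESeq2's filter on low counts left it without a Padj, and without IDPN 2 the call held (Padj 0.0385). Of 8 further dense-core granule genes 7 were tested, 3 were downregulated and 0 upregulated, with a median log2-Fold_Change of −0.82. Across all genes 3.42% were called lower. With total-count scaling 1 of them (Scg5) was called lower, beside 1.28% of all genes, and the list median was −0.60. Scg5, which encodes the chaperone of a prohormone convertase, had 5796, 5902 and 5039 normalized counts in Control and 2282, 2140 and 1925 in IDPN (−1.40, SE 0.15, Padj 7.66e-17). The IDPN libraries held less than any Control library by a wide margin. The granin genes Scg3 (814, 860 and 1145 against 567, 532 and 496) and Chgb (211, 160 and 239 against 110, 115 and 99.9) were downregulated too, at −0.82 (SE 0.19, Padj 0.00108) and −0.91 (SE 0.27, Padj 0.0172). Chgb is also among the 34 genes of the study. Its call was lost with edgeR (Padj 0.0728) and without Control 1, Control 3, IDPN 1 or IDPN 3 (Padj up to 0.102), and with total-count scaling neither was called (Padj 0.211 for Scg3 and 0.236 for Chgb). The processing enzyme gene Cpe (−0.04, SE 0.22, Padj 0.964) and the granin gene Chga (−0.42, SE 0.28, Padj 0.47) were not called.

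The other receptor-type phosphatases gave no upregulated gene either. Of the 11, 10 were tested, and Ptprt and Ptprn2 were the 2 that were called, both lower, beside 3.42% of all genes. Their median log2-Fold_Change was 0.13. Ptpra (0.18, SE 0.20, Padj 0.736) and Ptpre (0.25, SE 0.22, Padj 0.651), both with short extracellular regions, were not called, nor were Ptprb, the phosphatase of vascular endothelium (0.27, SE 0.23, Padj 0.626), and Ptprj, an adhesion-linked phosphatase of many cell types (0.27, SE 0.24, Padj 0.653). Ptprc, which encodes the leukocyte antigen CD45, had 16.9 to 26.7 normalized counts in Control and 8.28 to 40.2 in IDPN. Ptprh had 3 raw counts in Control 1 and 0 in the others.

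**Figure D4:**
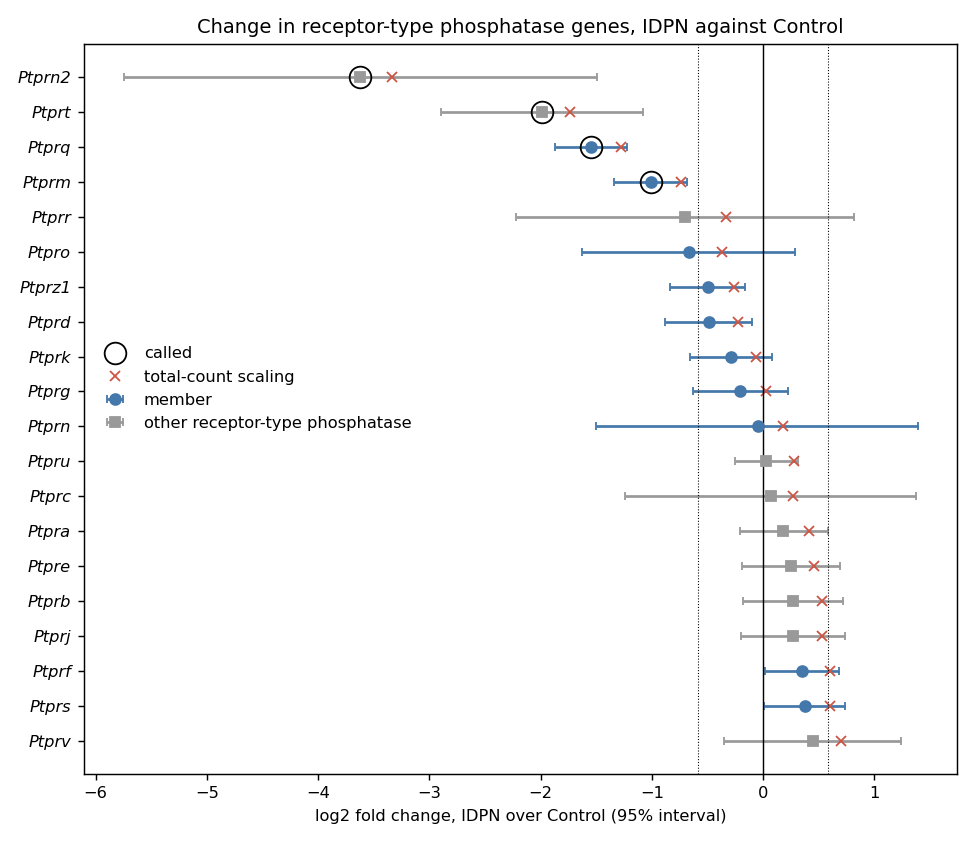
Log2 fold change (IDPN over Control) with its 95% interval for the 10 members (blue circles) and the 10 tested relatives (grey squares), red crosses marking the value with total-count scaling and rings the called genes. Dotted lines mark a fold change of 1.5. Ptprq at −1.55 and Ptprm at −1.01 are the called members, and the intervals of Ptpro and Ptprn are wide.

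Levels can be compared between genes only per length. Per kilobase of merged exon, Ptprq stood at 3008 ± 227 normalized counts in Control (SD, n = 3), followed by Ptprf at 271 ± 23.3, Ptprm at 257 ± 4.43 and Ptprz1 at 129 ± 17.3. Below these came Ptprk at 75.9 ± 13.8, Ptprg at 64.4 ± 13.5, Ptprs at 47.9 ± 7.82, Ptprd at 19 ± 1.15, Ptpro at 7.42 ± 3.21 and Ptprn at 3.05 ± 0.939. Neighbours in this order whose ranges overlapped, and which therefore cannot be ranked, were Ptprf with Ptprm, Ptprk with Ptprg, and Ptprg with Ptprs. After IDPN, Ptprq was still the highest at 1031 ± 157 per kilobase, Ptprf was at 347 ± 50.8, and Ptprm, at 127 ± 20.3, no longer overlapped with Ptprf. Ptprz1 followed at 91.1 ± 8.81. Ptprs at 62.3 ± 4.75, Ptprk at 61.9 ± 4.84 and Ptprg at 55.8 ± 9.81 then overlapped with each other. The lowest were again Ptprd at 13.6 ± 1.48, Ptpro at 4.64 ± 1.09 and Ptprn at 2.95 ± 0.111. With the longest transcript in place of merged exons, Ptprq was again first in both groups (3051 in Control), but in Control Ptprm, at 437, then stood above Ptprf, at 324, so the order of those genes depends on the length used.

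**Figure D5:**
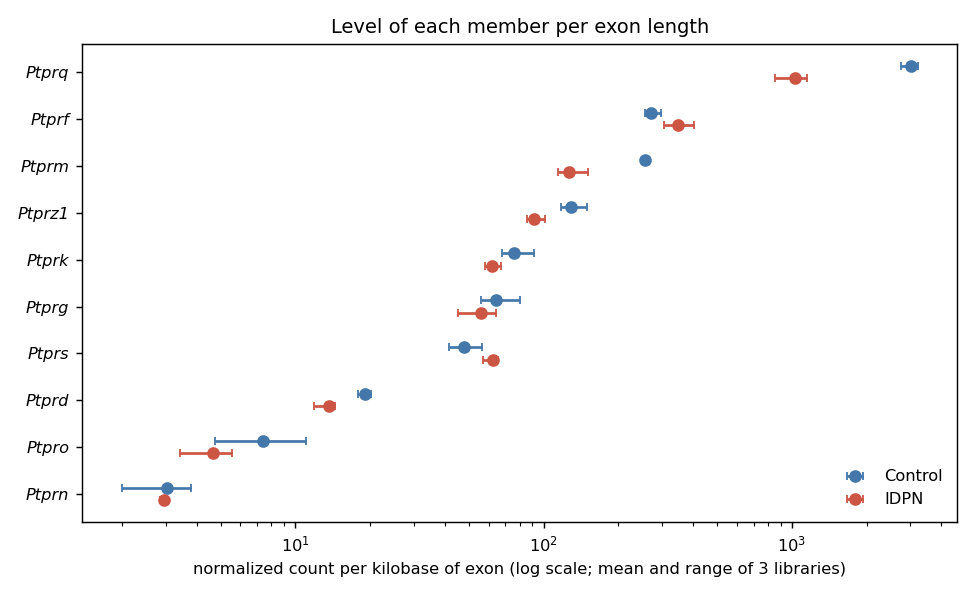
Normalized counts per kilobase of merged exon (log axis) of the 10 members in Control (blue) and IDPN (red), with points at the mean and bars over the range of 3 libraries. Ptprq, at 3008 in Control and 1031 in IDPN, lies above every other member in both groups, and Ptprm is close to Ptprf in Control but apart from it in IDPN.

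The genes whose values followed those of Ptprq most closely over the 6 libraries were Bmp2 (Pearson r = 0.9976), Gm1113 (now Vsig10l2, r = 0.9971), Scg5 (r = 0.9962), Prss23 (r = 0.9948) and Pon2 (r = 0.9947), out of 11770 genes whose mean normalized count reached 100. The measure is a description, since the 6 libraries share the difference between the groups, and 568 genes had r above 0.9. Bmp2, a growth factor gene of sensory organ development, had a log2-Fold_Change of −2.09 (SE 0.22, Padj 5.69e-19). Gm1113 had 9590, 9690 and 7659 normalized counts in Control and 2505, 1980 and 1428 in IDPN (−2.19, SE 0.21, Padj 8.55e-23). In normalized counts, Control 3 was the lowest Control and IDPN 3 the lowest IDPN library in Ptprq and in all these genes. Their selection by correlation with Ptprq favours such a shared order. It also depends on the size factors, as in raw counts Ptprq was highest in Control 3 (19827, 19866 and 23263 in Control). Bmp2 and Gm1113 are among the 34 genes of the study. Prss23, a serine protease gene, had a log2-Fold_Change of −0.93 (SE 0.15, Padj 1.09e-07), and Pon2, a lactonase gene, one of −0.42 (SE 0.14, Padj 0.0447), under the 1.5-fold threshold. Among the members, r with Ptprq was 0.97 for Ptprm, 0.87 for Ptprz1, 0.87 for Ptprd, 0.64 for Ptprk, 0.28 for Ptprg, −0.85 for Ptprs and −0.87 for Ptprf.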

How the data were processed

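Libraries were made with a SMART-seq2 protocol from 6 to 11 ng of total RNA, with 8 and 12 PCR cycles and no molecular identifiers. The authors aligned reads with STAR 2.5.3a to GRCm38 and estimated counts per gene with RSEM 2.3.0 (GENCODE M15). The deposited values are these estimated counts, given as whole numbers without normalization, and 26947 of the 52636 genes were at 0 throughout. Reads matching more than 1 gene were shared out by RSEM, and antisense genes cannot be told apart without strand.

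Groups followed the treatment labels (Control and IDPN, n = 3 animals each). The main test was the DESeq2 1.42.0 Wald test in R 4.3.3 without covariates, the tool and thresholds (Padj under 0.05, fold change above 1.5) being those of the study. The edgeR 4.0.16 quasi-likelihood test was the first alternative. Others changed size factors, filters or the threshold, or left out each library. The code was tested on simulated counts. Lengths and coding stretches came from GENCODE M21, with a length for 99.7% of genes. The coding stretch of 1 member is not reported here. Correlations used log2 values after adding 1.

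The members, gene lists and tests were chosen with earlier results of these data known. Named genes were the 10 members, related phosphatases that were called or had a mean of at least 100 counts, called partner genes with up to 2 abundant uncalled ones per list, and the 5 genes most like Ptprq. Ptprc, Ptprh, Clic5, Ripor2 and Lrfn5 were named after their values were seen.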

Additional observations from a re-analysis of the deposited data

How the results depend on the processing

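The calls of Ptprq and Ptprm held with edgeR, total-count or TMM size factors, the filter of 10 counts in 3 libraries, independent filtering or the Cook filter off, and without each library. Tested against a fold change of 1.5, 1 member was called (Ptprq, not Ptprm), with 111 lower and 34 higher genes in all. Over all genes, edgeR gave 357 lower and 166 higher calls, and total-count scaling 214 lower and 609 higher in place of 604 and 410, so the balance of directions depends on the scaling. Leaving out 1 library gave 436 to 720 lower and 234 to 611 higher genes, the higher calls being fewest without IDPN 2 (234), Control 1 (243), Control 2 (246) or IDPN 3 (265). The log2 ratio of Ptprq to HC markers stayed between −1.02 and −0.78 without each library.

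Signs turned in genes that were not called. With total-count scaling the log2-Fold_Change became 0.03 for Ptprg, 0.18 for Ptprn, 0.18 for Cpe, 0.05 for Myo6, 0.09 for Nrcam, 0.16 for Ppfibp1 and 0.04 for Ppfibp2. Without 1 library, values ran from −0.28 to 0.12 for Ptprn, −0.27 to 0.12 for Cpe, −0.14 to 0.01 for Ppfibp1, −0.01 to 0.29 for Ptpra, −0.58 to 0.48 for Ptprc and −1.18 to 0.34 for Ptprr. Clic5, Ripor2, Mdk and Lrfn5 were not among the 42 genes followed through these settings. Of the 42, calls of 4 were lost with edgeR (Chgb, Ptn, Ptprn2, Ptprt), 4 with total-count scaling (Chgb, Ptprn2, Scg3, Slitrk6) and 8 with the test against a fold change of 1.5. The cause was not tested.

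No paired analysis was possible because the labels give no replicate numbers shared between the groups. Ptpro, Ptprn and Ptprn2 rest on few counts.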

Other observations

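Ratios within a library do not depend on the size factors. These were chosen after seeing the data and carry no test. The log2 ratio of Ptprf to Ptprd was 2.43, 2.54 and 2.57 in Control and 3.22, 3.36 and 3.48 in IDPN, and that of Ptprs to Ptprd was 0.52, 0.73 and 0.89 against 1.38, 1.86 and 1.54. The IDPN libraries lay above all Control libraries in both, by 0.84 and 0.88 in the mean, although none of these LAR family genes passed the test alone. The log2 ratio of Ptprm to Ptprk, both homophilic adhesion receptors, was 1.30, 1.35 and 0.89 in Control and 0.57, 0.33 and 0.42 in IDPN. These ratios are counts per gene over counts per gene, not corrected for length.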
